A study of Mus musculus with 36 samples.

Results

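The comparison concerned how 1 further mutant allele of the liver X receptor alpha (LXRalpha) was read out in the diseased mouse liver. Livers of 4 homozygous mutants (F/F) were set against those of 4 heterozygous mutants (W/F), 8 of the 36 livers sequenced, and all 16638 expressed genes of 49315 listed were tested. All 8 mice were males aged 11 to 12 weeks, had eaten a high-fat, high-cholesterol diet that promotes metabolic dysfunction-associated steatohepatitis (MASH) for 4 weeks, and had received vehicle by daily oral gavage for the last 2 weeks. The mutation, made with CRISPR, replaces tryptophan (W) by phenylalanine (F) at residue 441 of LXRalpha. Both groups carried it, so that neither was a normal control. Homozygous controls (W/W) on the same diet with vehicle, and W/F and F/F mice on chow or on the MASH diet with 10 mg/kg of the LXR agonist T0901317, are used below for reference, with 4 mice in each group. The chow mice were an independent cohort according to the labels. The change is present in every cell of the animal, and the labels give neither the background strain nor the number of founder lines.

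LXRalpha is a nuclear receptor that binds oxidised forms of cholesterol. It pairs with the retinoid X receptor on DNA and turns on genes that export cholesterol from the cell, secrete it into bile, and make fatty acids through the transcription factor SREBP-1c. In liver macrophages it is also known as a factor that maintains the identity of Kupffer cells, the resident macrophages of the sinusoids. The changed residue lies in the last helix of the ligand-binding domain, the part of a nuclear receptor that closes over the ligand and recruits coactivators.

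The labels pair the name LXRalpha with the symbol Nr1h2, which is the gene of LXRbeta, whereas the LXRalpha gene is Nr1h3. The reference settles which gene has the stated residue. Codon 441 of the 445-residue product of Nr1h3 reads TGG, a tryptophan codon, at chr2:91184351-91184353 in exon 10 on the minus strand of GRCm38, the build named in the submitters' processing notes. In the 446-residue product of Nr1h2, codon 441 reads ATC and the neighbouring TGG is codon 442. The reference sequence around the Nr1h3 codon is shown because it is the site that differs between the groups, with the codon in capitals.
Nr1h3 codon 441: ctgctgtctgagatcTGGgatgtccacgag

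Values are in TPM (transcripts per 1000000), which are scaled to gene length and library total. Nr1h3 was listed at 124, 103, 95.8 and 91.4 TPM in the F/F mice and at 120, 101, 101 and 110 TPM in the W/F mice. The groups overlapped, and the difference of -0.07 ± 0.10 (SE) on the log2(TPM + 1) scale was not called (adjusted p = 0.693). A change of residue need not alter the level of the transcript, so this value does not test the labels. Nr1h2 did not pass the test (0.26, adjusted p = 0.0655), but was called higher with array quality weights (adjusted p = 0.0154) and in the fit of the 8 libraries alone (adjusted p = 0.0150).

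F/F and W/F livers differed in many genes. A total of 3552 genes (21.3% of those tested) passed an adjusted p of 0.05, of which 3169 (19%) were higher in F/F and 383 (2.30%) lower. At least a doubling was found for 346 of the higher genes, and the level was at least halved for 91 of the lower ones. The 15 largest falls included 4 genes of the Kupffer cell list and Scd1. The 15 largest rises included the matrix protease Mmp7, 3 neutrophil granule genes (Ngp, Ltf and Camp) and 2 imprinted RNAs (Meg3 and Rian), beside 9 genes of other kinds. The balance of directions depended on the scaling. The median gene was 0.18 higher in F/F (log2), and the 100 most abundant genes held 41.6% to 44.5% of the TPM of F/F libraries against 46.3% to 48.0% in W/F. After rescaling each library so that the median gene did not differ, 1762 genes (10.6%) were called, 955 (5.74%) higher and 807 (4.85%) lower, and 1322 were called in the same direction under both scalings. Calls that rescaling removes are named as such below. The 8 libraries held 23.2 to 34.5 M reads (1 M is 1000000), recovered from the spacing of low TPM, F/F and W/F lay apart on the first principal component (38.3% of the variance), and no 2 libraries were identical. The p-values rest on a spread between mice estimated over all 36 libraries, not over these 8 alone. The labels do not say that the mice came from separate litters or cages, so spread between litters or cages may not be covered.

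**Figure D1:**
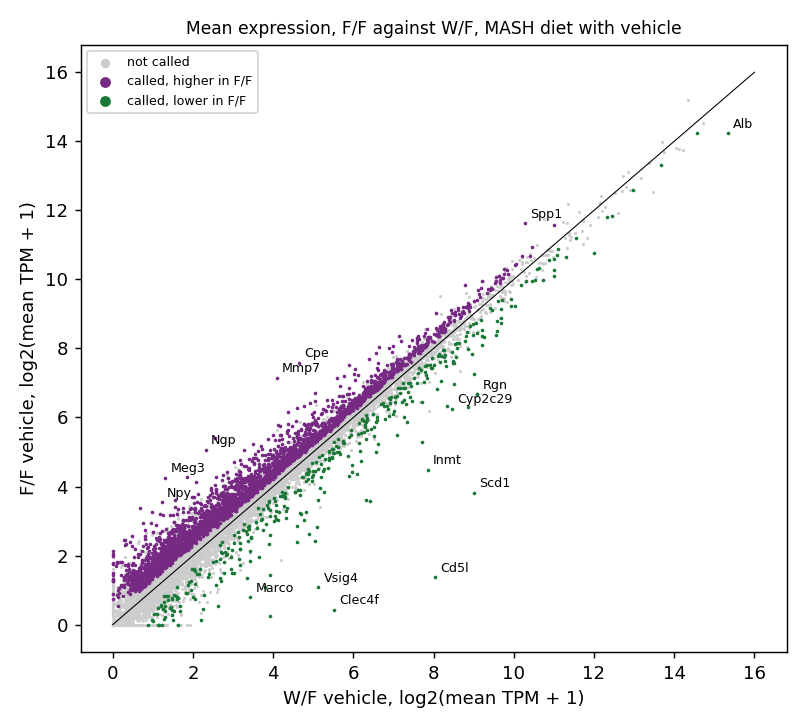
Mean expression of each tested gene in W/F (x axis) and F/F (y axis) livers on the MASH diet with vehicle, as log2(mean TPM + 1), with 4 mice in each group. Coloured points passed an adjusted p of 0.05 (3169 higher and 383 lower in F/F), the diagonal marks equal expression, and Cd5l, Clec4f, Vsig4 and Scd1 lie farthest below it.

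The 15 largest rises and the 15 largest falls were called under both scalings, with each of the 8 libraries left out in turn and in every other setting tried. Promoter sequences are shown for the gene that rose most and the gene that fell most, as the 250 bases before the start of the RefSeq transcript (GRCm38.p6) that begins at the annotated gene start. They lie at chr9:7691840-7692089 for Mmp7 and at chr3:87357631-87357880 for Cd5l, both on the plus strand. Capitals mark matches on either strand to CCAAT, the box bound by NF-Y, or to TGANTCA, the form bound by AP-1.
Mmp7 promoter: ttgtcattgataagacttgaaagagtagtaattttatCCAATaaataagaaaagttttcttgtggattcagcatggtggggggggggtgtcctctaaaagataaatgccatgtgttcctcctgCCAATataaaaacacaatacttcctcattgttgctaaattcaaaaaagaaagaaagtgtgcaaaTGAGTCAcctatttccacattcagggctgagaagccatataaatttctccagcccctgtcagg
Cd5l promoter: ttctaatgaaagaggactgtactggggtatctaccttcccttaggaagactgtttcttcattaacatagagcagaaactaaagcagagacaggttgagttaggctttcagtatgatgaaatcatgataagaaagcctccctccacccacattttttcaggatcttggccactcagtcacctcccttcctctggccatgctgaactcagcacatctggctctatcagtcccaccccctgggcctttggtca
The Mmp7 window holds CCAAT starting 213 and 127 bases before the start and TGAGTCA 63 bases before it, and the Cd5l window holds neither. Of 13 matched promoters among the rises, 6 hold CCAAT and 2 hold TGANTCA, and of 13 among the falls, 5 and 0 do, where 37.5% and 7.82% of 27025 genes have them. CACGTG (6.86% of genes) occurs in 1 of the rises and 0 of the falls. A DR4 element, here a pair of half-sites in the same orientation and 4 bases apart, each reading AGGTCA or one of the variants AGTTCA and also GGGTCA, occurs in 0 of these 26 promoters and in 0.0592% of all genes. These are matches of letters in a short window and no record of binding.

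The list of resident Kupffer cell genes held 3 of the 4 largest falls, Cd5l, Clec4f and Vsig4. Of 12 genes in the list, 6 were lower and 0 higher, and the same 6 were lower after rescaling, with a median log2 fold change of -0.95 against 0.18 over all genes tested. The share called lower among all genes tested was 2.30% (4.85% after rescaling). Cd5l, a secreted scavenger receptor protein that LXR is known to induce in macrophages, was listed at 1.12, 2.04, 1.34 and 1.83 TPM in F/F mice and at 223, 235, 285 and 308 TPM in W/F mice. The groups were far apart, with a log2 fold change of -6.68 ± 0.38 (SE, adjusted p = 9.79e-14).

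Clec4f, a lectin found on mouse Kupffer cells, was at 0.460, 0.280, 0.508 and 0.168 TPM in F/F and at 64.6, 25, 34.9 and 55.4 TPM in W/F. All W/F mice were above all F/F mice (-5.00 ± 0.27, adjusted p = 5.13e-14). The depth was sufficient for this difference, since 31 reads were recovered for Clec4f in the 4 F/F libraries together and 4689 in the W/F libraries. Vsig4, a complement receptor, was at 1.53, 0.465, 1.61 and 0.906 TPM against 26.2 to 39.8 TPM, a fall of 4.05 on the log2 scale (adjusted p = 1.26e-10). Marco, a scavenger receptor, was at 0.0598 to 1.24 TPM against 5.01 to 14.5 TPM (-2.60, adjusted p = 0.00229). The folate receptor gene Folr2 fell by 1.27 and Il18bp, which encodes a decoy for interleukin-18, fell by 1.42 (adjusted p = 0.00215 and 0.00550). Timd4 and Cd163 were low in both groups, at most 0.210 and 0.127 TPM in F/F and 1.56 and 0.451 TPM in W/F, and were not called (adjusted p = 0.0531 and 0.325), except with a pseudocount of 0.1, and for Timd4 also without W/F replicate 2 (adjusted p = 0.00743) or with a replicate block (adjusted p = 0.0423). In W/W livers on this diet they averaged 6.15 ± 0.628 and 4.33 ± 0.587 TPM (SD, n = 4). In bulk tissue, fewer cells of a type and less RNA per cell cannot be told apart.

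Most of the other macrophage genes did not show such a gap. C1qa, a complement component in the Kupffer list that macrophages in general make, was at 414 to 535 TPM in F/F and 391 to 513 TPM in W/F, which overlapped (0.11 ± 0.30, adjusted p = 0.828). C6, Id3 and Spic, also in the Kupffer list, were not called either. Gpnmb and Trem2, markers of lipid-associated macrophages, were at 461 to 601 and 43.6 to 63.5 TPM in F/F against 278 to 597 and 38.1 to 50.3 TPM in W/F. Both overlapped between the groups and neither was called (0.30 ± 0.53 and 0.38 ± 0.27, adjusted p = 0.730 and 0.337). Of 13 genes in the list of lipid-associated macrophages, 1 was higher and 0 lower. It was Spp1, encoding osteopontin, which bile duct cells also make. Of 12 genes of monocytes and macrophages, Itgam, the CD11b integrin chain, was higher (0.90, adjusted p = 0.00205) and Clec7a, the beta-glucan receptor dectin-1, was lower (-1.27, adjusted p = 0.0305), with 10 not called. The call for Itgam was lost with a pseudocount of 0.1 (0.97, adjusted p = 0.104). The call for Clec7a was lost when any of F/F replicates 2 and 3 or W/F replicates 2, 3 and 4 was left out (adjusted p = 0.0530 to 0.0801). Ear2, a secreted ribonuclease of eosinophils and monocytes with close copies, was among the 15 largest falls, at 7.14 to 14.9 TPM in F/F and 71.3 to 85.5 TPM in W/F (-2.73, adjusted p = 2.90e-05).

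**Figure D2:**
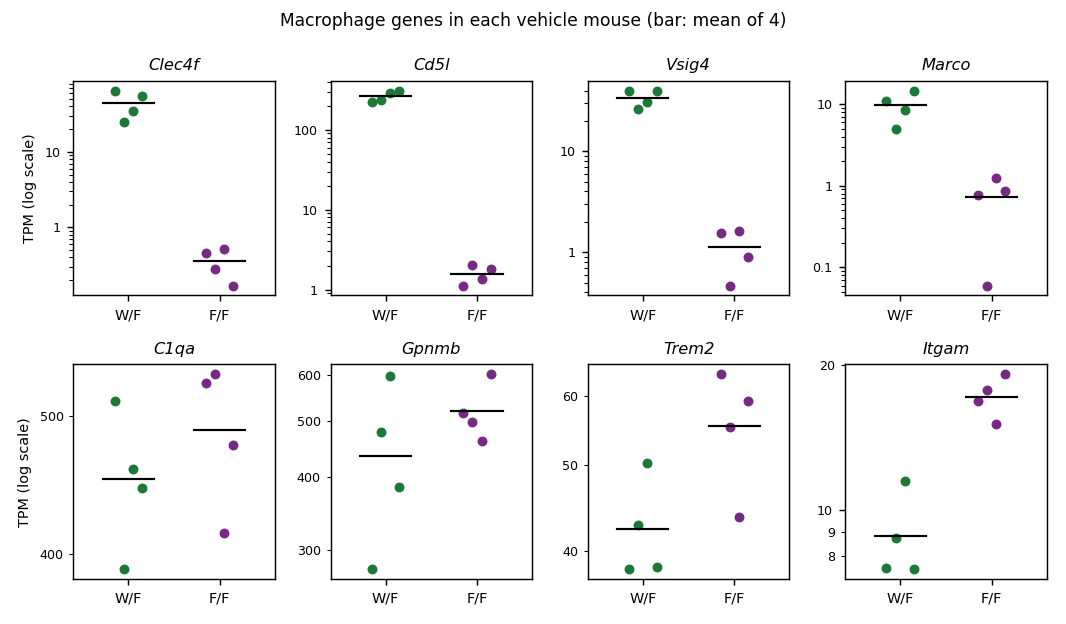
TPM of macrophage genes in each W/F and F/F mouse on the MASH diet with vehicle (log scale, own range in each panel, bar at the mean of 4). Clec4f, Cd5l, Vsig4 and Marco are lower in each F/F mouse than in each W/F mouse, C1qa, Gpnmb and Trem2 overlap, and Itgam is higher in each F/F mouse.

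Cytokine and antigen-presentation genes gave no calls. None of 15 tested inflammatory cytokines and chemokines passed limma's test at an adjusted p of 0.05 under either scaling, and 0 had an unadjusted p under 0.05. Ccl2, which attracts monocytes, was at 53.2 to 70.1 TPM in F/F and 48.1 to 66.0 TPM in W/F (0.07 ± 0.56, adjusted p = 0.949). Il6, the remaining member, stayed under the filter. For MHC class II presentation 0 of 9 tested genes were called and 0 had an unadjusted p under 0.05, although the median log2 fold change was -0.47 and 4 of the genes were lower in each F/F mouse than in each W/F mouse, as 2.97% of all tested genes were (24.4% were higher in each F/F mouse).

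Neutrophil genes were higher in F/F. Of 11 tested, 7 rose and 0 fell (6 rose after rescaling, without S100a9), with a median log2 fold change of 1.22. Among all genes tested, 19% rose (5.74% after rescaling). Ngp, a granule protein of maturing neutrophils, was at 31.5, 50.9, 14.2 and 33.9 TPM in F/F and at 3.19, 2.5, 7.61 and 2.6 TPM in W/F. The groups did not overlap, and F/F replicate 3 was the lowest of the F/F mice (2.73 ± 0.39, adjusted p = 1.06e-05). Ltf, the iron-binding lactoferrin, rose by 2.32 and Camp, the cathelicidin antimicrobial peptide, by 2.04 (adjusted p = 6.35e-08 and 1.49e-08). S100a9, an abundant calcium-binding protein of neutrophils and monocytes, overlapped between groups, at 76.2 to 219 TPM against 40.4 to 78.4 TPM (adjusted p = 0.0460). Without any of F/F replicates 1, 2 and 4 or W/F replicates 1, 2 and 4 it was not called (adjusted p = 0.0802 to 0.138).

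Of the blood genes, the globins were also higher in F/F. Hbb-bs, a beta globin, was at 212 to 501 TPM in F/F and 92.7 to 193 TPM in W/F (1.17, adjusted p = 0.00159), and 4 of 6 tested erythroid genes were higher and Car1 lower (3 and 0 after rescaling). The call for Car1 was also lost without F/F replicate 2, 3 or 4 or W/F replicate 1, 2 or 3 (adjusted p = 0.0781 to 0.203). The summed level of the list was 533 to 1036 TPM in F/F and 214 to 426 TPM in W/F. Of the W/F mice, replicate 3 had the highest level of the neutrophil gene Ngp and the lowest of Hbb-bs. Of the F/F mice, replicate 2 had the highest level of both. Globin genes are near-identical copies, so the split of reads between them is uncertain. In the list of T, B and NK lymphocytes 2 of 9 tested genes rose (1 after rescaling), a share close to the 19% of all genes tested (5.74% after rescaling). The median log2 fold change of the list was 0.10, below that of all genes. Ighm, the heavy chain of IgM, was at 17.5 to 60.4 TPM against 6.97 to 12.3 TPM (1.64, adjusted p = 0.00416). The light-chain segment Igkv1-135 was among the 15 largest rises. The part of blood cells left in the tissue in the neutrophil values was not tested.

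Matrix genes were higher in F/F. Of 22 genes for collagens and matrix, 16 rose and Mmp13 fell (not with a pseudocount of 0.1, adjusted p = 0.234), with a median log2 fold change of 0.80 (9 rose and 1 fell after rescaling, median 0.60). Across all genes tested, 19% rose (5.74% after rescaling). Mmp7, the metalloproteinase matrilysin and the largest rise of all, was at 160, 142, 106 and 157 TPM in F/F and at 18.4, 16.7, 16.3 and 12.4 TPM in W/F. Each F/F mouse was far above each W/F mouse (3.06 ± 0.35, adjusted p = 3.55e-07). Mmp2, a gelatinase of stromal cells, was at 48.2 to 60.4 TPM against 13.9 to 21.9 TPM (1.60, adjusted p = 7.76e-05). Col6a2, a chain of microfibrillar collagen VI, rose by 1.39 and Loxl1, a collagen and elastin cross-linking enzyme, by 1.16 (adjusted p = 0.000206 and 0.000968).

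Col1a1, the main chain of fibrillar collagen, was at 255, 299, 261 and 261 TPM in F/F and at 186, 109, 93.1 and 115 TPM in W/F. The groups did not overlap, and the W/F mice were spread more widely than the F/F mice. The difference of 1.14 ± 0.39, with an SE that draws on all 36 libraries, was close to the threshold (adjusted p = 0.0370). The call held in the fit of the 8 libraries alone, and rescaling took it past the threshold (0.93, adjusted p = 0.104). Col1a1 was also not called without any single one of the 4 F/F mice or of W/F replicates 2, 3 and 4 (adjusted p = 0.0611 to 0.0990). The same held with a pseudocount of 0.1 (adjusted p = 0.0682) and with no filter (adjusted p = 0.0599).

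In the list of hepatic stellate cells and myofibroblasts, 8 of 15 genes rose and 1 fell (3 and 1 after rescaling). The share that rose among all genes tested was 19% (5.74% after rescaling). Lum, a proteoglycan of stromal cells, was at 168 to 259 TPM in F/F against 72.3 to 104 TPM in the W/F mice (1.30, adjusted p = 0.000342). Lrat, the enzyme with which quiescent stellate cells store vitamin A, was at 5.77 to 8.29 TPM in F/F against 15.3 to 17.6 TPM (-1.10, adjusted p = 4.13e-06). Acta2, a smooth muscle actin used as a marker of myofibroblasts, overlapped between the groups at 4.72 to 19.7 and 13.1 to 15.5 TPM (-0.22, adjusted p = 0.707).

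Genes of the bile duct and of the ductular reaction were higher. Of 12, 10 rose and 0 fell, where 19% of all genes tested rose. After rescaling 9 rose and Krt8 fell, where 5.74% of all genes rose. Krt19, the cholangiocyte keratin, was at 33.1, 32.1, 44.0 and 31.6 TPM in F/F and at 16.4, 14.0, 8.27 and 9.52 TPM in W/F. The groups did not overlap (1.51 ± 0.22, adjusted p = 1.70e-05). Epcam, a surface protein of biliary and progenitor cells, rose by 1.39 and Sox9, their transcription factor, by 1.28 (adjusted p = 0.00144 and 8.98e-05). Spp1 was at 2757, 3433, 3359 and 3146 TPM against 1526, 1198, 1121 and 1125 TPM, without overlap (1.36, adjusted p = 0.00133). Cd24a, a glycoprotein of progenitor cells, rose by 1.76 (adjusted p = 2.27e-05). Of the 14 endothelial genes, 5 rose (4 after rescaling), where 19% of all genes tested did (5.74% after rescaling). Among them were Cd34 (1.15, adjusted p = 1.84e-05) and the scavenger receptor Stab1 (0.70, adjusted p = 0.00196).

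Mesothelial genes were low and did not all move the same way. Msln and Wt1 were 2 of 3 tested genes of 6 in the list and both were higher (Msln not with a pseudocount of 0.1, adjusted p = 0.0717). Across all genes tested, 19% were higher (5.74% after rescaling). Upk3b, the other tested gene, was not called, with 46 recovered reads in F/F and 61 in W/F. The summed level of the list was 6.50 to 10.8 TPM in F/F and 1.73 to 4.27 TPM in W/F. Upk1b, which was not tested, was at 0 in 3 F/F and 2 W/F mice. The part of the liver capsule in the stromal values was not tested. Adipocyte genes gave 0 calls among 4 tested of 8 (1 had an unadjusted p under 0.05), with Lep at 0 in all 8 mice. Exocrine pancreas genes gave 0 calls among 2 tested (0 with an unadjusted p under 0.05), with Prss1 at 0 in all 8 mice.

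**Figure D3:**
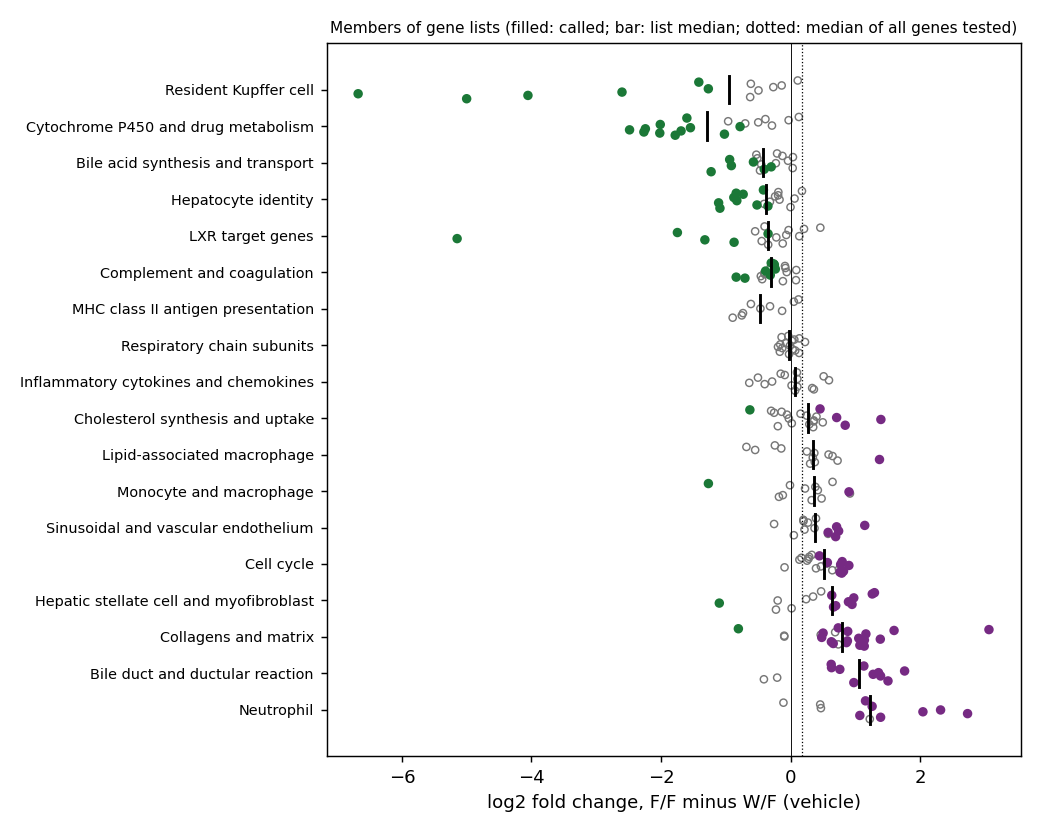
Log2 fold change, F/F minus W/F on the MASH diet with vehicle, of each tested member of 18 gene lists. Filled points were called (purple higher, green lower in F/F), open points were not, bars are list medians and the dotted line is the median of all genes tested (0.18). Kupffer and P450 genes lie to the left, and matrix, duct and neutrophil genes to the right.

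Among genes outside these groups, the largest rises included genes active in fetal or neuroendocrine tissue. Cpe, carboxypeptidase E of prohormone processing, was at 190, 200, 182 and 196 TPM in F/F and at 28.2, 23.9, 26.7 and 17.2 TPM in W/F (2.97 ± 0.37, adjusted p = 1.70e-06). Meg3 and Rian, maternally expressed non-coding RNAs of a shared imprinted cluster, rose by 2.92 and 2.13 (adjusted p = 1.43e-11 and 1.38e-09). Meg3 was at 23.7, 24.6, 13.1 and 11.2 TPM in F/F and did not exceed 2.35 TPM in W/F. Npy, the gene of neuropeptide Y, was at 9.84 to 11.9 TPM against 0.726 to 2.26 TPM (2.38, adjusted p = 4.35e-10). H19, an imprinted fetal RNA, was at 197 to 267 TPM against 72.0 to 126 TPM (1.31, adjusted p = 0.0235). Its call was lost after rescaling (1.11, adjusted p = 0.0790) and without F/F replicate 2, W/F replicate 1 or W/F replicate 2 (adjusted p = 0.0549 to 0.0652). Of 10 tested genes of the fetal liver list, 6 rose and 0 fell (5 and 0 after rescaling). Over all genes tested, 19% rose (5.74% after rescaling). The fetal genes not called were Afp, Anxa2, Ly6d and Sprr1a, and Cd24a, which rose, is also in the bile duct list.

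Akr1c18, a progesterone-reducing dehydrogenase, rose by 2.38, and Guca2b, encoding uroguanylin, by 2.01 (adjusted p = 4.69e-05 and 9.23e-05). Others of the 15 were Fcrls, Scube3, Tbx1 and Fam180a, with rises between 1.89 and 2.03. Phgdh, the first enzyme of serine synthesis, was at 5.58 to 7.16 TPM in F/F and 1.96 to 2.52 TPM in W/F (1.18, adjusted p = 5.37e-07). Of 20 cell cycle genes, 8 rose and 0 fell, where 19% of all genes tested rose. Only Ccna2, Birc5 and Aurka remained after rescaling, where 5.74% of all genes rose. Ccna2 was not called with a pseudocount of 0.1 (adjusted p = 0.0579). Birc5, the mitotic protein survivin, was at 6.84 to 9.32 TPM against 3.29 to 3.91 TPM (0.90, adjusted p = 0.00403).

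Of the 16 LXR target genes, 5 were lower and 0 higher in F/F (7 and 0 after rescaling), with a median log2 fold change of -0.35. Among all genes tested, 2.30% were lower (4.85% after rescaling). Scd1, the desaturase that makes oleate, was at 11.2, 15, 13.7 and 12.6 TPM in F/F and at 322, 616, 612 and 504 TPM in W/F. All W/F mice were above all F/F mice by more than an order of magnitude (-5.15 ± 0.30, adjusted p = 9.79e-14). Srebf1, which encodes SREBP-1c, was at 22.5, 22.6, 23.3 and 26.6 TPM against 80.6, 58.5, 49.9 and 58.0 TPM, without overlap (-1.32 ± 0.22, adjusted p = 7.76e-05).

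Of the cholesterol transporters, Abcg5 fell and Abca1 and Abcg1 were not called. Abcg5, a subunit of the transporter that secretes sterols into bile, was at 31.8 to 40.3 TPM in F/F and 60.4 to 81.3 TPM in W/F (-0.87, adjusted p = 0.00848). Its partner Abcg8 was at 25.8 to 33.3 against 34.5 to 55.7 TPM and was not called (-0.45 ± 0.27, adjusted p = 0.257). Abca1, the exporter to apolipoprotein A-I, overlapped (-0.34 ± 0.15, adjusted p = 0.101), and was called lower after rescaling (-0.54, adjusted p = 0.0187) and without W/F replicate 4 (adjusted p = 0.0440). Abcg1 was at 32.5 to 41.0 and 31.3 to 49.5 TPM (-0.12 ± 0.24, adjusted p = 0.760). Pltp, the phospholipid transfer protein, fell by 1.75 and Apoe by 0.35 (adjusted p = 0.00121 and 0.0204). Apoe was not called without F/F replicate 2 or 3 (adjusted p = 0.0580 and 0.08). Its call was also lost in the fit of the 8 libraries alone (adjusted p = 0.0912) and with no filter (adjusted p = 0.174). Lpcat3, which puts polyunsaturated chains into phospholipids, and Mylip, a ubiquitin ligase, were not called (-0.22 and 0.14, adjusted p = 0.275 and 0.629).

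**Figure D4:**
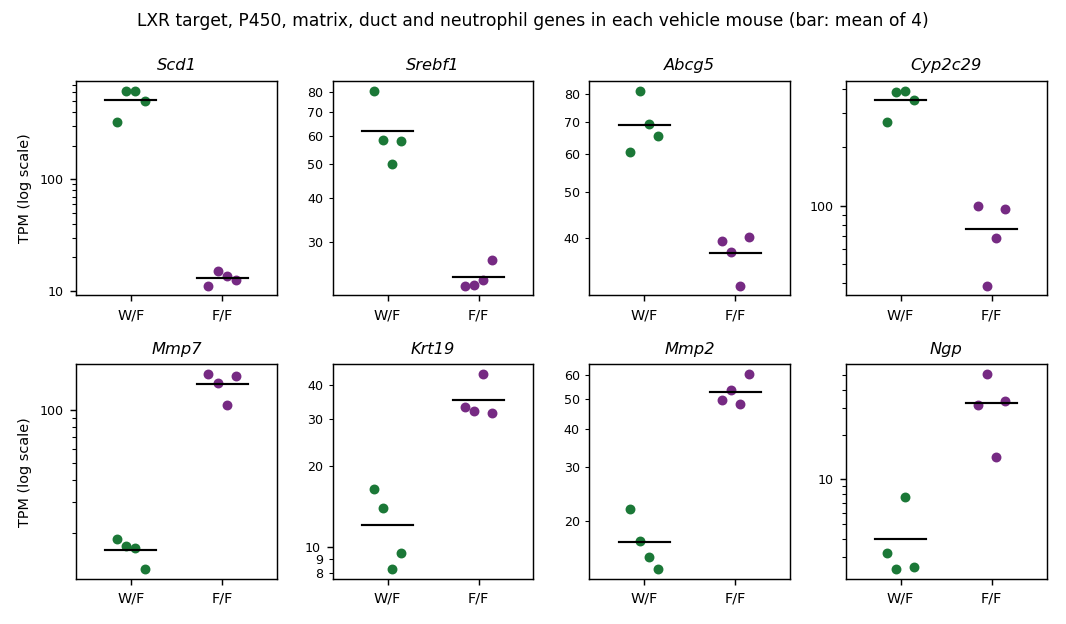
TPM of LXR target, P450, matrix, duct and neutrophil genes in each W/F and F/F mouse on the MASH diet with vehicle (log scale, own range in each panel, bar at the mean of 4). The groups are apart in all 8 panels, with F/F lower for Scd1, Srebf1, Abcg5 and Cyp2c29 and higher for Mmp7, Krt19, Mmp2 and Ngp.

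Some genes of fatty acid and triglyceride synthesis were lower with Scd1. Of 18, Acaca, the acetyl-CoA carboxylase of the cytosol, and Thrsp, a lipogenic regulator, were lower, as 2.30% of all genes tested were. Dgat1 was higher until rescaling. After rescaling 3 were lower, with Dgat2 added, where 4.85% of all genes were. Without overlap between the mice, 5 of the 18 were lower in F/F and 2 higher, against 2.97% and 24.4% of all genes tested. Acaca was at 2.13 to 2.90 TPM in F/F and 4.2 to 6.59 TPM in W/F (-0.93, adjusted p = 0.000472). Thrsp was at 3.21 to 5.71 TPM against 82.6, 14.1, 12.2 and 19 TPM, with W/F replicate 1 high (-2.17, adjusted p = 0.0196). Its call was lost without that mouse (adjusted p = 0.0971) or without F/F replicate 4 (adjusted p = 0.0506). Fasn, the fatty acid synthase, was at 7.63 to 11.0 TPM against 11.1 to 28.8 TPM and was not called (-0.75 ± 0.41, adjusted p = 0.201).

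Of 20 genes of cholesterol synthesis and uptake, 4 were higher and Insig1 lower (2 and 2 after rescaling), so that the share called higher was close to the 19% of all genes tested. Insig1, which holds back SREBP processing, was not called without any of F/F replicates 1, 2 and 3 or W/F replicates 1, 2 and 3 (adjusted p = 0.0566 to 0.129). Sqle, squalene epoxidase, was at 7.91, 7.54, 12.9 and 9.07 TPM in F/F and at 2.77, 3.29, 2.85 and 2.57 TPM in W/F, without overlap (1.40 ± 0.17, adjusted p = 8.68e-07). Mvk, mevalonate kinase, rose by 0.84 (adjusted p = 0.000395). Srebf2, encoding the transcription factor of this pathway, was at 26.1 to 30.9 TPM against 20.03 to 20.5 TPM (0.46, adjusted p = 0.0199), a call removed by rescaling (0.26, adjusted p = 0.168) and without F/F replicate 3 or 4 (adjusted p = 0.0519 and 0.0602).

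Genes of hepatocyte function were lower. Where 2.30% of all genes tested fell (4.85% after rescaling), 9 of 18 in the hepatocyte identity list fell and 0 rose under both scalings. The list genes had a median log2 fold change of -0.38. Alb, serum albumin and the most abundant of them, was at 18000, 18785, 21731 and 18891 TPM in F/F and at 36841, 44609, 42657 and 40644 TPM in W/F (-1.09 ± 0.19, adjusted p = 0.000173). Each F/F mouse had less than the lowest W/F mouse. Cps1, the entry enzyme of the urea cycle, fell by 1.11 and Glul, glutamine synthetase of the hepatocytes around the central vein, by 0.84 (adjusted p = 0.000373 and 8.17e-06).

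Cytochrome P450 and drug metabolism genes had the lowest list median, -1.28, with 11 of 18 lower and 0 higher (15 and 0 after rescaling). Over all genes tested, 2.30% were lower (4.85% after rescaling). Cyp2c29 was at 99.7, 38.7, 67.8 and 96.2 TPM in F/F and at 269, 385, 390 and 349 TPM in W/F (-2.26, adjusted p = 3.55e-07). Cyp2c50 and Cyp2f2 fell by 2.49 and 2.01 (adjusted p = 8.85e-07 and 3.55e-07). Cyp2c and Cyp2a genes have near-identical copies, so their single values are uncertain. Rgn, the calcium-binding lactonase regucalcin, was at 116, 86.1, 102 and 99.1 TPM against 509, 663, 500 and 495 TPM (-2.41 ± 0.12, adjusted p = 1.27e-14). That was the lowest adjusted p of the genes given here. Inmt, an indole methyltransferase, was at 10.7 to 39.5 TPM against 165 to 360 TPM (-3.48, adjusted p = 6.48e-08). Mbl2, mannose-binding lectin of the complement system, fell by 2.60, the lysolipid transporter Mfsd2a by 2.51, and the steroid dehydrogenases Hsd3b2 and Hsd3b3, a pair of close copies, by 2.71 and 2.33.

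Of 16 genes of bile acid synthesis and transport, 6 fell and 0 rose (8 and 0 after rescaling). Slc27a5, which activates bile acids, was at 179 to 208 TPM in F/F and 277 to 423 TPM in W/F (-0.91, adjusted p = 1.17e-06). Cyp7a1, the rate-limiting enzyme of bile acid synthesis, was at 21, 10.1, 11.3 and 15.6 TPM against 36.4, 46.3, 29.2 and 27.1 TPM. The groups did not overlap, yet the call was marginal (-1.23 ± 0.45, adjusted p = 0.0490), and it was lost without F/F replicate 2, 3 or 4 or any single W/F mouse (adjusted p = 0.0633 to 0.126). Complement and coagulation genes fell in 8 of 19 cases (14 after rescaling), where 2.30% of all genes tested did (4.85% after rescaling). Of 15 acute phase genes 1 was called lower, Orm3, which was not called without F/F replicate 3 or W/F replicate 3 (adjusted p = 0.0577 and 0.0647). The acute phase median was -0.26. Without overlap between the mice, 5 of the 15 were lower in F/F and 1 higher, against 2.97% and 24.4% of all genes tested. Mup3, a major urinary protein with close copies, was at 75.8 to 116 TPM against 256 to 897 TPM (-2.20, adjusted p = 0.000223). For the respiratory chain 0 of 16 subunits were called as deposited (4 had an unadjusted p under 0.05) and 4 were lower after rescaling, with a median log2 fold change of -0.02. Of 14 interferon-stimulated genes 4 rose (2 after rescaling), where 19% of all genes did (5.74% after rescaling). Among them was the ubiquitin-like Isg15 (1.05, adjusted p = 0.0114), which was not called without F/F replicate 2, at 159 TPM the highest mouse (adjusted p = 0.0730).

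To see whether the step from W/F to F/F depended on the diet, its size on the MASH diet with vehicle was tested against that on chow. A total of 1136 genes (6.83%) differed, 223 (1.34%) with a higher and 913 (5.49%) with a lower F/F minus W/F difference on the MASH diet. After rescaling 1353 genes (8.13%) differed, 494 (2.97%) higher and 859 (5.16%) lower. Within chow, F/F and W/F differed in 6884 genes (41.4%). Diet cannot be told apart from cohort here, because the chow mice were a separate cohort.

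Cholesterol synthesis showed the broadest such difference among the lists. For 16 of 20 genes the F/F minus W/F difference was higher on the MASH diet than on chow (19 after rescaling) and for 0 lower. Sqle was lower in F/F than in W/F on chow, at 65.5 ± 15.9 and 137 ± 21.2 TPM (SD, n = 4), and higher on the MASH diet, at 9.35 ± 2.45 and 2.87 ± 0.301 TPM (SD, n = 4). The difference of the differences was 2.47 on the log2 scale (adjusted p = 9.22e-08).

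For Scd1 and 5 of 12 Kupffer genes the difference was lower on the MASH diet than on chow, while it was higher for 2 Kupffer genes, Timd4 and Cd163. Scd1 was at 63.9 ± 20.01 TPM in F/F and 38.3 ± 18 TPM in W/F on chow (SD, n = 4), a log2 difference of 0.79, against -5.15 on the MASH diet. The difference between them was -5.94 (adjusted p = 1.00e-10). Srebf1 was lower in F/F on chow (-1.70) and with T0901317 (-1.57) too, and its difference from chow was 0.38 ± 0.31 (SE, adjusted p = 0.525). Cd5l averaged 1.66 ± 0.390 TPM in F/F mice on chow and 1.58 ± 0.424 TPM in those fed the MASH diet, whereas W/F mice averaged 29.2 ± 13.9 and 263 ± 40.5 TPM (SD, n = 4). The difference from chow was -3.28 for Cd5l, -3.15 for Clec4f and -2.95 for Vsig4 (adjusted p = 0.000248, 5.93e-06 and 6.87e-05).

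For genes of lipid-associated macrophages and matrix the step from W/F to F/F was smaller on the MASH diet. All 13 lipid-associated macrophage genes had a lower difference than on chow, 10 of them called (10 after rescaling). Gpnmb was at 0.551 ± 0.103 TPM for W/F and 34.8 ± 9.80 TPM for F/F on chow (SD, n = 4), and high in both genotypes on the MASH diet, so that its difference was lower by 4.19 (adjusted p = 0.000574). Among collagens and matrix genes 12 of 22 had a lower difference, such as Col1a1 (-1.97, adjusted p = 0.0271), and 0 a higher one. Mmp7 showed no difference that was called (0.32 ± 0.49, adjusted p = 0.778), with log2 fold changes of 2.75 on chow, 3.06 with vehicle and 3.17 with T0901317. Npy was the opposite case, listed at 0 in all W/F mice on chow and at 0.103 ± 0.205 TPM in F/F (SD, n = 4), and its difference was higher by 2.25 on the MASH diet (adjusted p = 4.81e-06).

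**Figure D5:**
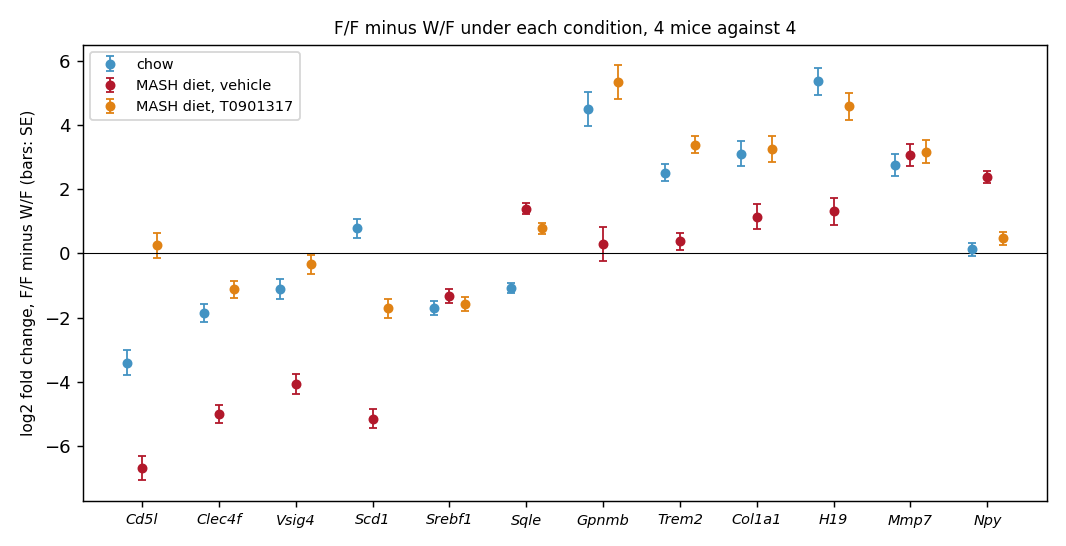
Log2 fold change, F/F minus W/F, for 12 genes in the chow, MASH diet vehicle and T0901317 groups (points, with bars of 1 standard error, 4 mice against 4). The vehicle points of Cd5l, Clec4f, Vsig4 and Scd1 lie below those of the other conditions, those of Gpnmb, Trem2, Col1a1 and H19 lie nearer 0, that of Npy lies above, and the 3 points of Srebf1 and of Mmp7 lie close together.

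The same step was tested against that in mice given T0901317 on the MASH diet. A total of 3191 genes (19.2%) differed, 268 (1.61%) higher and 2923 (17.6%) lower with vehicle, and after rescaling 2403 (14.4%), 1120 (6.73%) higher and 1283 (7.71%) lower. Within the mice given T0901317, F/F and W/F differed in 10409 genes (62.6%). With the agonist, Cd5l was not called between genotypes, at 117 ± 34.3 TPM in F/F and 139 ± 153 TPM in W/F (SD, n = 4). The W/F mice ranged from 44.9 to 367 TPM and the F/F mice from 95.7 to 168 TPM, so that the mean TPM was higher in W/F while the mean on the log2 scale was higher in F/F, by 0.25 ± 0.38 (SE, adjusted p = 0.583). Its difference with vehicle was lower by 6.93 (adjusted p = 1.52e-09). Clec4f was at 30.3 ± 4.796 TPM in F/F given T0901317 and 72.1 ± 33.7 TPM in W/F (SD, n = 4), and its difference with vehicle was lower by 3.88 (adjusted p = 2.16e-07). For Scd1 the difference with vehicle was lower by 3.44 (adjusted p = 5.77e-06), with 583 ± 85.6 TPM in F/F and 1900 ± 242 TPM in W/F under the agonist (SD, n = 4).

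All 13 lipid-associated macrophage genes and 17 of 22 collagen and matrix genes (14 after rescaling) had a lower F/F minus W/F difference with vehicle than with T0901317. Gpnmb, at 10.3 ± 18.2 TPM for W/F and 182 ± 35.3 TPM for F/F given the agonist (SD, n = 4), differed by -5.02 (adjusted p = 5.61e-05). Col1a1 differed by -2.11 (adjusted p = 0.00896). For cholesterol synthesis, 0 of 20 genes differed as deposited (4 had an unadjusted p under 0.05, by limma) and 2 were higher after rescaling. These tests share the 8 vehicle libraries with the comparison against chow, so the 2 sets of differences are not independent.

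Allele dose on the MASH diet was described by placing W/F between W/W and F/F. On the log2 scale, W/F differed from the midpoint of the other genotypes in 5197 genes (31.2%), above it in 4568 (27.5%) and below it in 629 (3.78%). After rescaling 4223 (25.4%) differed, 2233 (13.4%) above and 1990 (12.0%) below. Scd1 went down stepwise, with 7896 ± 2382 TPM for W/W, 514 ± 138 TPM for W/F and 13.1 ± 1.61 TPM for F/F (SD, n = 4). W/F did not differ from the midpoint by the test (0.60, adjusted p = 0.0708). Krt19 went up stepwise, from 1.51 ± 0.233 through 12.0 ± 3.80 to 35.2 ± 5.89 TPM (SD, n = 4; 0.42 from the midpoint, adjusted p = 0.0935), as did Mmp7, from 0.639 ± 0.322 through 16 ± 2.55 to 141 ± 24.6 TPM (SD, n = 4; 0.16, adjusted p = 0.724). Phgdh also lay near the midpoint (0.00 ± 0.12, adjusted p = 0.993).

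For Gpnmb and Trem2 most of the change was between W/W and W/F. Gpnmb averaged 1.18 ± 1.25 TPM for W/W, 435 ± 136 TPM for W/F and 519 ± 59.2 TPM for F/F (SD, n = 4), so that W/F was above the midpoint by 3.71 (adjusted p = 1.18e-06). All 13 lipid-associated macrophage genes were called above the midpoint under both scalings, and so were 12 of 15 cytokines and chemokines. Lcn2, the siderophore-binding lipocalin made by stressed hepatocytes, was at 7.44 ± 2.38, 1527 ± 450 and 2060 ± 239 TPM (SD, n = 4; 3.51 above, adjusted p = 0.00417). In the other direction, Mup7 averaged 3713 ± 1694 TPM for W/W, 5.07 ± 1.94 TPM for W/F and 9.24 ± 3.47 TPM for F/F (SD, n = 4), which put W/F below the midpoint by -4.95 (adjusted p = 0.000150). Mup genes have near-identical copies.

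The Kupffer genes behaved differently from one another. Cd5l was highest in the heterozygotes, at 80.5 ± 7.69, 263 ± 40.5 and 1.58 ± 0.424 TPM for W/W, W/F and F/F (SD, n = 4), with W/F 4.18 above the midpoint (adjusted p = 1.11e-09). Clec4f was at 72.3 ± 4.17, 45.0 ± 18.2 and 0.354 ± 0.158 TPM, and Vsig4 at 23.9 ± 0.517, 34.0 ± 6.70 and 1.13 ± 0.544 TPM (SD, n = 4), both with W/F above the midpoint (2.12 and 2.26, adjusted p = 3.20e-07 and 6.25e-07). Timd4 and Cd163 lay below the midpoint in W/F (-0.73 and -0.90, adjusted p = 0.00682 and 0.000105). Cyp2a4, with close copies, was also highest in W/F, at 1.47 ± 0.577, 84.3 ± 44.3 and 11.0 ± 4.15 TPM (SD, n = 4; 3.76 above, adjusted p = 4.85e-07), as was Ear2, at 5.18 ± 1.42, 78.0 ± 5.83 and 11.2 ± 3.20 TPM (SD, n = 4; 3.22 above, adjusted p = 2.87e-07).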

How the data were processed

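PolyA RNA of 36 livers was sequenced, and the submitters' processing notes name Trimmomatic 0.36, STAR 2.5.2b, Subread 1.5.2, featureCounts and the builds GRCm38 and mm10. The authors deposited 1 table of TPM, whose columns each sum to 1000000. Read counts and strand settings were not given in the sources used here, so antisense partners cannot be told apart. Of the identifiers, 49056 matched GENCODE M21 and 259 did not.

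The genes kept had 1 TPM or more in 4 or more libraries. All 36 libraries entered 1 linear fit of log2(TPM + 1) with 9 group means (limma 3.58.1 under R 4.3.3, with a mean-dependent prior variance). Two-sided p-values were corrected by the Benjamini-Hochberg method, separately for each contrast, across all 16638 genes, and called under 0.05. Fold changes on this scale understate the change of low genes. Rescaled values were divided by median-of-ratios factors over 14786 genes above 0 in all libraries. Read numbers came from the spacing of low TPM and exon length. In each library 93.7% to 95.7% of genes under 20 reads then lay within 0.1 of a whole number, where chance gives 20%, and recovered depths were 18.0 to 35.8 M reads. The procedure was tested on simulated data.

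Named genes were the 15 largest rises and falls (5 in the other contrasts) among called genes that reached a mean of 5 TPM in the higher group, for the former also without overlap between groups, leaving out predicted gene models. Up to 4 called genes of each list and 22 fixed genes were added. Other list members named (such as Car1, Folr2, C1qa, Sox9, Timd4 and Cd163) were chosen after their values were seen. Members and lists were chosen with earlier results of these data known. Alternatives were a pseudocount of 0.1, a filter of 5 TPM, no filter, rescaling, a replicate block, weights for library quality, a fit restricted to the libraries compared, and each library left out.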

Additional observations from a re-analysis of the deposited data

Results flagged for a closer look

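Among the 222 groups of 4 mice formed by 111 genes in F/F and W/F, 12 had a mouse set apart from the other 3 beyond Dixon's critical value, where chance gives about 1 in 20. In W/F they were Fasn in replicate 1 (28.8 TPM, others 11.1 to 13.1), Gpx2 in replicate 1 (4.15 TPM, others 8.95 to 9.81), Cyp2a4 in replicate 1 (20.6 TPM, others 90.8 to 122), Cyp2b9 in replicate 1 (0.0407 TPM, others 14.98 to 24.5), Rgn in replicate 2 (663 TPM, others 495 to 509) and Mvk in replicate 4 (7.37 TPM, others 6.42 to 6.51). In F/F they were Hsd3b5 in replicate 1 (0.661 TPM, others 0.735 to 0.743), Hsd3b3 in replicate 1 (9.03 TPM, others 3.67 to 4.25), Col1a1 in replicate 2 (299 TPM, others 255 to 261), Cyp2a4 in replicate 2 (4.97 TPM, others 12.0 to 14.2), Krt19 in replicate 3 (44.0 TPM, others 31.6 to 33.1) and Cyp2b9 in replicate 4 (0.496 TPM, others 0.0614 to 0.122). Of the 6 values in W/F, 4 were in replicate 1.

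The genes whose F/F minus W/F difference departed most from that on chow, by a test of the difference itself, were as follows on the log2 scale. It was higher on the MASH diet for Mup15 (6.59), Mup7 (6.32), Hsd3b5 (5.68), Mup17 (5.59) and Mup11 (4.53). In these genes both genotypes were low on the MASH diet, with Hsd3b5 at most 0.743 TPM in F/F and 0.542 TPM in W/F. It was lower for Cyp2b9 (-6.43), the keratinocyte envelope gene Sprr1a (-6.24), Scd1 (-5.94), Ly6d (-5.31) and H2-M2 (-5.18).

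Against T0901317, the difference was higher with vehicle for Mup7 (8.23), Mup15 (7.18), Mup11 (7.05), Mup17 (6.81) and Cfd (6.27), encoding the complement protease adipsin. It was lower for Cd5l (-6.93), Sprr1a (-6.00), Ly6d (-5.34), Cyp2a4 (-5.25) and H2-M2 (-5.14). Ly6d was at 303 to 929 TPM in W/F and 576 to 1385 TPM in F/F with vehicle, and at 10.5 ± 14.4 and 523 ± 183 TPM (SD, n = 4) with the agonist.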

How the results depend on the processing

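The number of genes called between F/F and W/F was 3552, and 1762 after rescaling. It lay between 2457 (pseudocount 0.1) and 4618 (array quality weights) in the other settings and between 2556 and 3274 with a library left out. Genes with a different step than on chow numbered 1136, 2865 with array quality weights and 703 to 1347 with a library left out. Those with a different step than under T0901317 numbered 3191, 5156 with array quality weights and 1907 to 4127. Genes off the midpoint numbered 5197, and 3366 to 5532. Counts moved by over 1.5 times without F/F chow replicate 3 (703), F/F chow replicate 4 (722) or W/F vehicle replicate 3 (746) for chow, W/F T0901317 replicate 1 (1907) for T0901317, and W/F vehicle replicate 3 (3366) for the midpoint. The share of calls that were higher moved with rescaling from 89.2% to 54.2%, from 19.6% to 36.5%, from 8.40% to 46.6% and from 87.9% to 52.9%. Causes were not tested. With the replicate block 3562, 1224, 3432 and 5330 genes were called. Same-numbered F/F and W/F libraries correlated in their deviations by 0.20, 0.03, 0.00 and -0.03, so the numbers were not taken as pairs.

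Of 151 genes named by rule or in the text, 125 were called and 71 of these in all settings, and none reversed. Rescaling removed 27 calls and added 2, the pseudocount removed 22 and added 2, no filter removed 14, the fit of 8 libraries removed 10 and added 1, quality weights added 2, and the block removed Cyp7a1 (adjusted p = 0.0506) and added Timd4. Depth limited genes under about 1 TPM, such as Timd4, with 8 reads in F/F and 72 in W/F.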

Other observations

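Of 16 genes of the urea cycle and amino acid catabolism, 5 were lower and 1 higher in F/F (7 and 0 after rescaling). Of all genes tested 2.30% were lower (4.85% after rescaling). The lower genes of this list included Sds, serine dehydratase (-0.83, adjusted p = 0.0115) and Gldc, of the glycine cleavage system (-0.74, adjusted p = 0.0226). Gldc was not called without F/F replicate 1 or 4 or W/F replicate 3 or 4 (adjusted p = 0.0554 to 0.0958). Of 18 PPAR-alpha targets and genes of fatty acid oxidation, Ehhadh, a peroxisomal enzyme, was at 75.3 to 98.2 TPM in F/F and 123 to 217 TPM in W/F (-0.96, adjusted p = 0.000826). Lysosomal genes gave 5 of 19 calls and lipid droplet genes 5 of 15, all higher, where 19% of all genes tested were, and rescaling removed each of these 10 calls. Of 14 Nrf2 antioxidant genes, 1 was higher and 1 lower (1 and 4 after rescaling), with a median log2 fold change of -0.22. Gpx2, the glutathione peroxidase of epithelia, was at 13.5 to 32.3 TPM against 4.15 to 9.81 TPM (1.22, adjusted p = 0.00550), and was not called with a pseudocount of 0.1 (adjusted p = 0.141). Gclc, a subunit of the rate-limiting enzyme of glutathione synthesis, was at 186 to 309.8 TPM against 319.5 to 564 TPM (-0.86, adjusted p = 0.0456). It was not called without F/F replicate 1, 3 or 4 or W/F replicate 2, 3 or 4 (adjusted p = 0.0643 to 0.138), nor with a pseudocount of 0.1 (0.0581) or no filter (0.0733).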
